A study of Rattus norvegicus with 48 samples.

Results

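The miRNAs described here are miR-10a-5p, miR-10b-5p and miR-196a-5p, 3 of the 763 mature rat miRNAs counted by small RNA sequencing in 32 serum and 16 ulna bone libraries. They were chosen by name, as miRNAs encoded inside the Hox gene clusters, and all 3 were listed in every library. WT rats were male Zucker lean rats (ZDF +/+), and ZDF rats were male Zucker Diabetic Fatty rats (ZDF fa/fa), which carry a homozygous leptin receptor mutation and develop type 2 diabetes. Among the WT sera, 5 followed placebo, 5 PTH (parathyroid hormone) and 4 an anti-sclerostin antibody. The ZDF sera comprised 5 under placebo, 5 under PTH, 4 under anti-sclerostin and 4 under insulin. The bones were homogenised ulnae, 4 for each pairing of genotype with placebo or PTH. Rats were 11 weeks old when treatment began and were sampled 12 weeks later, and all of them, placebo rats included, had a surgical femur defect and a high-fat, high-carbohydrate chow. Per the study's methods each bone is from a rat that also gave serum, with 2 of the 4 ZDF PTH bones as the exception. No label ties a bone to its serum, so tissues were compared as independent groups.

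Hox genes encode transcription factors that give cells their position along the body axis and along the limb, and their clusters also hold miRNA genes. The miR-10 genes lie beside Hox4 genes and the miR-196 genes beside Hox9 and Hox10 genes, and adult cells of the limb keep much of the Hox expression of their position. Members of both families bind the messages of Hox genes, and miR-196 is best known for repressing Hoxb8 and its paralogs. A miRNA finds its targets mainly through its seed, bases 2 to 8 from the 5′ end.

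The mature sequences are printed because the members differ so little from one another that this limits how their counts can be read. They were taken from RefSeq (build GRCr8), 5′ to 3′, with the seed in capitals. The positions are those of GRCr8, while the authors mapped to Rnor_6.0. The first 3 lines are the members and the last 2 are the other miR-196 genes:
rno-miR-10a-5p: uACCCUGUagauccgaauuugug
rno-miR-10b-5p: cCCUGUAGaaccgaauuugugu
rno-miR-196a-5p: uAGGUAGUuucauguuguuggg
rno-miR-196b-5p: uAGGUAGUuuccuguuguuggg
rno-miR-196c-5p: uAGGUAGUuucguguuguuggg
The sequence of miR-10a-5p is at chr10:81779730-81779752 on the plus strand, in the miRNA gene Mir10a between Hoxb5 and Hoxb4. That of miR-10b-5p is at chr3:80035886-80035907 on the plus strand, in Mir10b, past the start of Hoxd4 and before that of Hoxd3. That of miR-196a-5p is at chr7:135988900-135988921 on the plus strand, in Mir196a between Hoxc10 and Hoxc9. These Hox neighbours were taken by gene start alone, so a miRNA inside a Hox gene is listed as past its start. The mature miR-10b-5p is listed as starting 2 bases later than miR-10a-5p, and its seed is therefore shifted. Read from 2 bases earlier, the hairpin of Mir10b gives uacccuguagaaccgaauuugugu, which has the seed ACCCUGU of miR-10a-5p and a single difference from it over 23 bases, U12A, counted from the 5′ end of miR-10a-5p. All 3 miR-196 sequences share the seed AGGUAGU and differ at 1 base, A12C between miR-196a-5p and miR-196b-5p, A12G between miR-196a-5p and miR-196c-5p and C12G between miR-196b-5p and miR-196c-5p. The authors allowed 1 mismatch when mapping to mature miRNAs, so a read of one member can be counted on another.

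A serum library held 28015 to 205664 miRNA reads (median 86230) and a bone library 41627 to 1398702 (median 237032). They made up 0.529% to 4.09% of all reads in serum and 1.58% to 21.5% in bone. Levels are given as TMM CPM, which are miRNA reads scaled to a common library size with edgeR's trimmed-mean factors over all 48 libraries, and libraries are numbered only to name them. The 2 shallowest bones, WT PTH bone 1 with 54497 reads and WT PTH bone 2 with 41627, stood apart from the other bones of their group. Their smooth muscle markers miR-143-3p and miR-145-5p summed to 228526 and 300225 TMM CPM, against 90251 and 77368 in WT PTH bones 3 and 4, and their endothelial markers summed to 14527 and 7691, against 25619 and 27160. Fold changes of single members that rest on these bones are therefore also given without them. These 2 bones were singled out after their values, those of the members included, had been seen. Some lists of markers differed between the tissues. The 5 striated muscle miRNAs summed to 48154 to 438293 TMM CPM in bone and 114 to 43401 in serum. The 3 osteoblast and mesenchyme miRNAs summed to 12705 to 49521 in bone and 175 to 2859 in serum. The 2 liver miRNAs summed to 0 to 11.0 in bone and 90.9 to 2732 in serum. The 4 erythrocyte miRNAs summed to 8139 to 13989 in bone and 22330 to 428100 in serum. Not every list did: the 4 cartilage miRNAs overlapped, at 17014 to 48885 in WT placebo bone and 16132 to 41484 in WT placebo serum. The striated muscle, osteoblast, liver and erythrocyte lists moved with every difference between tissues given below, and their part in it was not tested. In bulk samples such as these, fewer cells of a type and less of a miRNA per cell cannot be told apart.

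**Figure D1:**
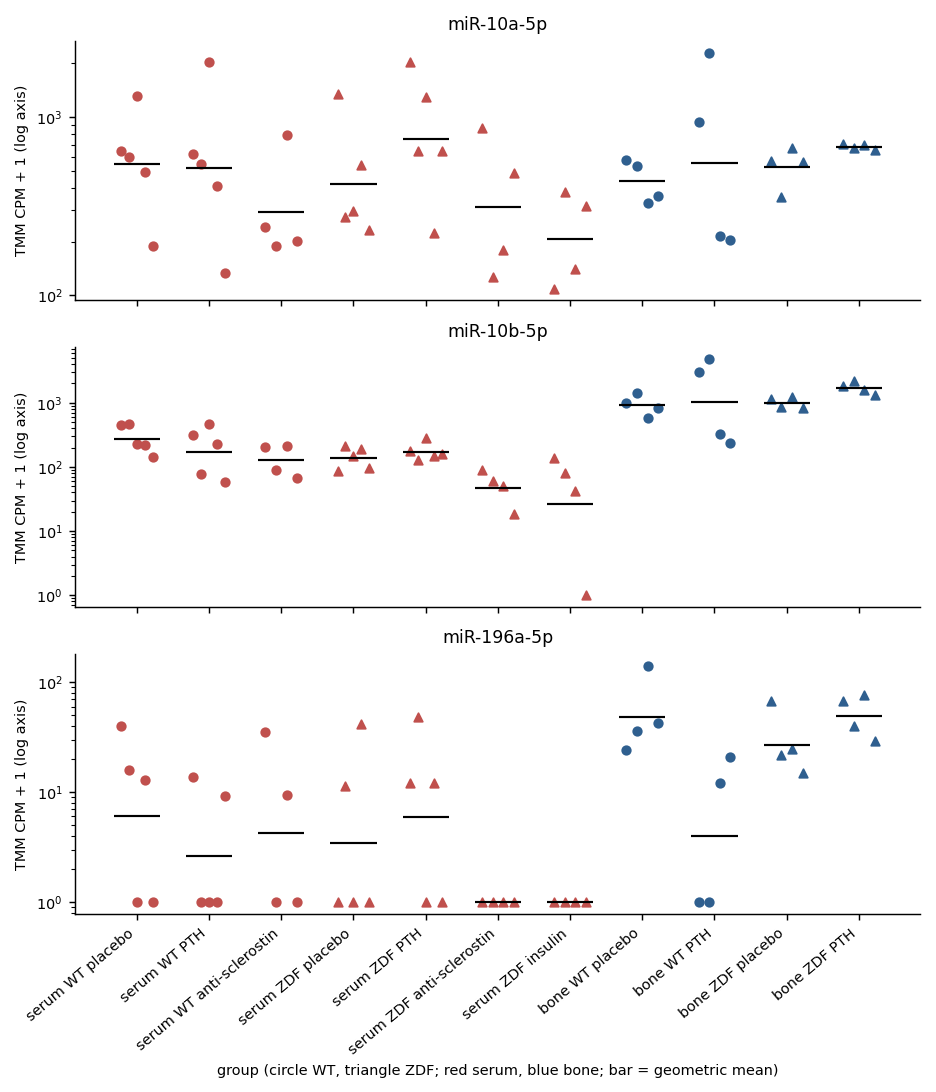
Level of each member in each of the 48 libraries, as TMM CPM + 1 on a log axis, by group. Circles are WT and triangles ZDF rats, red is serum and blue is bone, and the bar is the geometric mean. miR-10b-5p sat higher in bone than in serum apart from WT PTH bones 3 and 4, miR-10a-5p covered the same range in both tissues, and miR-196a-5p had 0 reads in 20 of 32 sera.

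Between the tissues, the pair of miR-10 miRNAs parted: miR-10b-5p was higher in bone than in serum of the same genotype and treatment in all 4 comparisons, by 1.59 to 3.35 on the log2 scale, while miR-10a-5p passed the test in none of them. One of the 4, in PTH-treated WT rats, rested on 2 bones. In placebo-treated WT rats the 4 bones held 995, 1410, 578 and 835 TMM CPM of miR-10b-5p and the 5 sera 449, 474, 229, 215 and 141. Every bone was above every serum, and the log2 fold change was 1.59 ± 0.44 (SE, n = 4 and 5, FDR = 0.00453 by edgeR's quasi-likelihood test). In placebo-treated ZDF rats the bones held 1163, 844, 1246 and 834 TMM CPM and the sera 84.2, 209, 148, 191 and 97.1. Here too the groups did not overlap, with a log2 fold change of 2.71 ± 0.35 (FDR = 4.97e-06, edgeR). In PTH-treated ZDF rats the bones held 1826, 2166, 1554 and 1328 TMM CPM and the sera 177, 126, 284, 145 and 158. This was the widest gap, 3.35 ± 0.43 (FDR = 4.28e-06, edgeR), again without overlap. In each of these 3 comparisons the exact two-sided permutation test gave p = 0.0159, the smallest value possible with 4 against 5 libraries. In all, 48 such permutation tests of members were run and their p-values were not adjusted.

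In PTH-treated WT rats the bones did not form a single group. WT PTH bones 1 and 2 held 3065 and 4775 TMM CPM of miR-10b-5p, and bones 3 and 4 held 320 and 239, inside the range of the 5 sera (315, 77.6, 469, 223 and 57.8). The log2 fold change of 2.75 ± 0.75 (FDR = 0.00167, edgeR) rested on the first pair: without it the value was 0.06 ± 0.70 with FDR = 0.937, and the exact permutation test with all bones gave p = 0.0952. Tissues differed in most miRNAs, so a call by itself says little about miR-10b-5p: 80.6% of the miRNAs tested were called at FDR < 0.2 in placebo WT rats, 86.1% in placebo ZDF, 79.9% in PTH WT and 81.6% in PTH ZDF. Called higher in bone, as miR-10b-5p was, were 41.9%, 46.0%, 37.5% and 46.3%, in the same order. Groups without overlap were found for 30.8%, 37.8%, 28.5% and 36.4% of the miRNAs with a read, in the same order.

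The tissues overlapped in miR-10a-5p. Its mean was 578 ± 512 TMM CPM over the 32 sera and 644 ± 483 over the 16 bones (SD). In placebo WT rats the 5 sera held 645, 593, 1313, 491 and 188 and the 4 bones 574, 531, 327 and 362, so that the bones lay inside the range of the sera. The 4 fold changes between bone and serum lay between -0.62 ± 0.51 and -0.10 ± 0.50 (SE, log2) with FDR from 0.289 to 0.871 by edgeR, and their sign was not stable under other scalings. Leaving out 1 library brought miR-10a-5p past the threshold, lower in bone, in placebo WT rats (without bone 1, serum 2 or serum 5, at -0.83 to -0.92) and in PTH-treated ZDF rats (without serum 4, at -0.90), and leaving out WT PTH bones 1 and 2 did so in PTH-treated WT rats, at -2.09 ± 0.90 with FDR = 0.0498. Scaled to all reads of a library, miR-10a-5p came out 0.96 to 2.85 higher in bone on the log2 scale, while the median miRNA came out 1.87 to 3.10 higher. Relative to that median, miR-10a-5p was then 0.25 to 0.91 lower and miR-10b-5p 1.61 to 2.87 higher, and miR-10b-5p was higher in bone under every scaling tried. With the reads of miR-10a-5p and miR-10b-5p summed, the difference in placebo WT rats was 0.47 with FDR = 0.350, and in the other comparisons 1.09 to 1.13, past the threshold. The comparison in PTH-treated WT rats included WT PTH bones 1 and 2. Without them miR-10b-5p alone stood at 0.06 and miR-10a-5p at -2.09, and the summed reads were not tested. In order of mean level over the 11 groups, miR-10a-5p ran from 967 TMM CPM in PTH ZDF serum to 236 in insulin ZDF serum, and every pair of neighbours in this order overlapped. For miR-10b-5p the order ran from WT PTH bone (2100) through ZDF PTH bone (1719), ZDF placebo bone (1022) and WT placebo bone (954) to the sera, from 302 in WT placebo to 53.9 in ZDF anti-sclerostin. Neighbours failed to overlap at 2 steps only, between ZDF PTH bone and ZDF placebo bone, and between WT placebo bone and WT placebo serum.

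The ratio of the miR-10 miRNAs within a library does not depend on its scaling, and it separated the tissues. Reads of miR-10b-5p outnumbered those of miR-10a-5p in 16 of 16 bones and in 1 of 32 sera. On the log2 scale, with 0.5 reads added to each count, the ratio of miR-10b-5p to miR-10a-5p was 1.05 ± 0.40 in bone and -1.69 ± 1.24 in serum (SD, n = 16 and 32). In other words, miR-10b-5p made up 67.2% ± 6.12 of the reads of the pair in bone and 26.0% ± 13.7 in serum. The shares in the 4 placebo WT bones were 63.4%, 72.7%, 63.9% and 69.8%, and in the placebo WT sera 41.1%, 44.4%, 14.9%, 30.5% and 42.9%. The ratio was higher in bone by 2.04 in placebo WT, 2.51 in placebo ZDF, 2.44 in PTH WT and 3.42 in PTH ZDF rats, without overlap in any of them. Each gave p = 0.0159 in the exact permutation test, or 0.0635 after Benjamini-Hochberg adjustment over the 16 comparisons of 2 groups. How many other pairs of miRNAs have a ratio that separates the tissues was not computed. Of single miRNAs, 28.5% to 37.8% did not overlap between them. WT PTH bones 1 to 4, which differed so widely in level, had shares of 76.7%, 67.5%, 59.8% and 54.1%, all above the 12.5% to 35.4% of the PTH-treated WT sera. In the other 12 comparisons, of genotypes or treatments within a tissue, the groups overlapped and the exact p was 0.143 or more. The counts behind the ratio were low in serum, with 0 to 69 reads of miR-10b-5p and 8 to 184 of miR-10a-5p per library, against 58 to 1181 and 39 to 582 in bone.

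**Figure D2:**
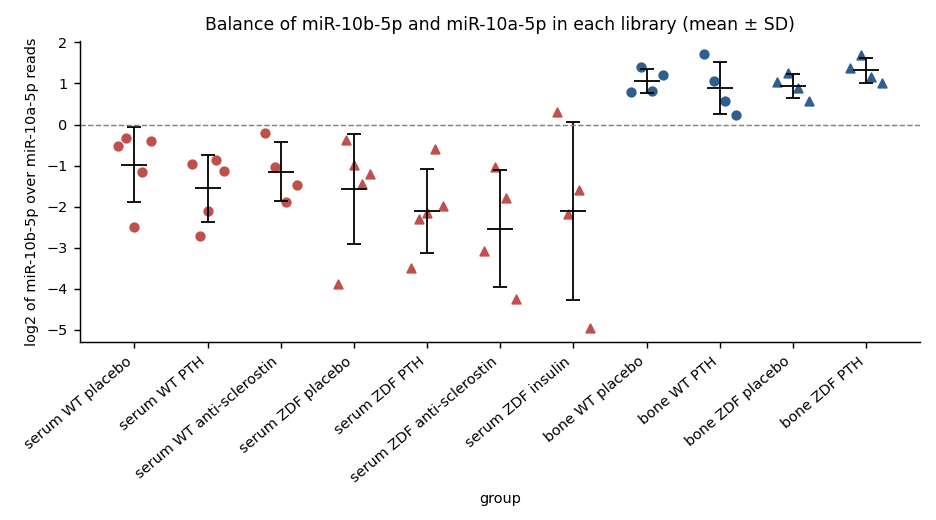
Log2 ratio of miR-10b-5p to miR-10a-5p reads in each library, by group, with mean ± SD. Circles are WT and triangles ZDF rats, red is serum and blue is bone. All 16 bones lie above the dashed line of equal reads, and 31 of 32 sera below it.

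Few differences between treatments or genotypes passed the test. Of the 15 comparisons of genotypes or treatments that were tested, 12 between 2 groups and 3 of the response to a treatment between genotypes, 1 held a member at FDR < 0.2. The other 14 held 27 tests of members by edgeR, of which 0 were called, 3 reached an unadjusted p under 0.05 and 0 were called by DESeq2. The share of all miRNAs called by edgeR in these comparisons was low as well. Between ZDF and WT rats it was 6.1% in placebo serum, 0.0% in PTH serum, 0.0% in anti-sclerostin serum, 2.55% in placebo bone and 3.27% in PTH bone. Against placebo it was 1.27% under anti-sclerostin in ZDF serum, 0.0% under anti-sclerostin in WT serum, 0.0% under PTH in the sera of either genotype, 0.0% under PTH in ZDF bone and 5.41% under PTH in WT bone. The interactions of PTH or anti-sclerostin with genotype in serum, and of PTH with genotype in bone, each gave 0.0%. In the 9 comparisons with 0 miRNAs called by edgeR, 2 to 18 miRNAs had an unadjusted p under 0.05, and DESeq2 called 0 to 6. The shares in bone depended on the method. DESeq2 called 14.9% between ZDF and WT rats under placebo, 11.2% between them under PTH, and 19.5% under PTH in WT rats. Independent filtering in edgeR called 12.6%, 5.36% and 14.2%, and all bone groups in one fit 0%, 4.94% and 14%, in the same order.

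**Figure D3:**
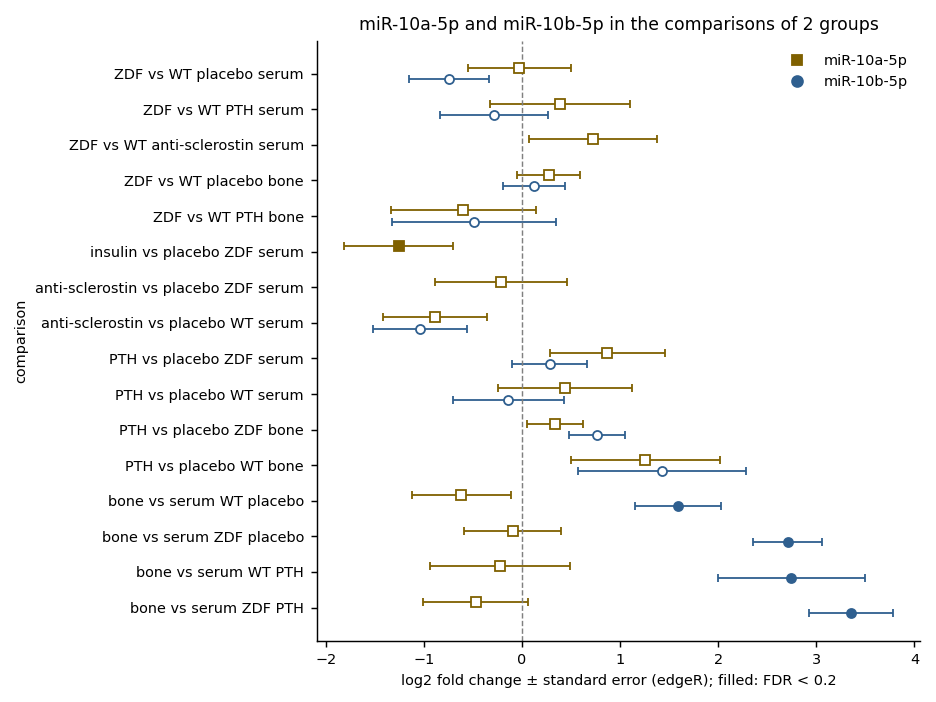
Log2 fold change ± standard error of miR-10a-5p (squares) and miR-10b-5p (circles) in each of the 16 comparisons of 2 groups, with filled symbols at FDR < 0.2. Points are missing where too few reads were present for a test. The filled symbols are miR-10b-5p in the 4 comparisons of bone with serum, at 1.59 to 3.35, and miR-10a-5p in insulin-treated against placebo ZDF serum, at -1.26.

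The one call was miR-10a-5p in insulin-treated ZDF rats. The 4 insulin sera held 108, 380, 139 and 316 TMM CPM and the 5 placebo ZDF sera 1347, 272, 295, 533 and 231. Their ranges overlapped, and placebo serum 1 was far above the rest. The log2 fold change was -1.26 ± 0.55 (SE, n = 4 and 5, FDR = 0.165 by edgeR), and the exact permutation p was 0.159. Without placebo serum 1 the change was -0.51 ± 0.45 with FDR = 0.510, and leaving out any of 4 other sera, insulin sera 1, 3 and 4 and placebo serum 5, also ended the call, at FDR from 0.202 to 0.439 with log2 fold changes from -1.34 to -0.95. In the same comparison 26.5% of all miRNAs tested were called. The 4 erythrocyte miRNAs summed to 224169 to 428100 TMM CPM in the insulin sera and to 60552 to 155313 in the placebo sera, without overlap, and their part in this result was not tested. With all serum groups in one fit the call was lost at a like fold change, -1.24 ± 0.72 (FDR = 0.454). Scaled to the synthetic controls the change was -0.17 ± 0.63 (FDR = 0.851), where the median miRNA stood at 0.72. miR-10b-5p had 10, 6, 3 and 0 reads in the insulin sera and 5, 20, 15, 14 and 8 in the placebo sera, too few for edgeR after the filter on low counts, and its exact p was 0.0635.

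Under the other treatments, serum values of the members spread widely within each group. In the 5 sera of PTH-treated ZDF rats miR-10a-5p was at 2039, 645, 1289, 223 and 640 TMM CPM, and the comparison with placebo gave 0.87 ± 0.59 with FDR = 0.993 (edgeR). Scaled to the synthetic controls, miR-10a-5p was 2.93 ± 0.97 higher (FDR = 0.0687) and miR-10b-5p 2.15 ± 0.84 higher (FDR = 0.0773), where the median miRNA was 1.42 higher and 57.1% of miRNAs were called. In anti-sclerostin-treated ZDF rats miR-10b-5p had 3, 11, 6 and 1 reads, which was 53.9 ± 30.0 TMM CPM (SD, n = 4) against 145.9 ± 55.4 (n = 5) under placebo. The exact permutation p was 0.0317, the groups overlapped, and the reads were too few for edgeR. In anti-sclerostin-treated WT rats the change of miR-10b-5p was -1.04 ± 0.48 with an unadjusted p of 0.0444 and FDR = 0.459 (edgeR). Between ZDF and WT placebo sera miR-10b-5p differed by -0.74 ± 0.41 with FDR = 0.453 (edgeR) and overlapping groups. Scaled to all reads in place of TMM, that difference was -1.59 ± 0.53 with FDR = 0.0363, while the median miRNA stood at -0.87.

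In bone, PTH and genotype were compared with 4 bones a group. In ZDF rats the PTH bones held 1826, 2166, 1554 and 1328 TMM CPM of miR-10b-5p and the placebo bones 1163, 844, 1246 and 834. All 4 PTH bones lay above all 4 placebo bones, and the exact permutation p was 0.0286, the smallest that 4 against 4 allows. Among all miRNAs with a read, 0.879% did not overlap in this comparison. The log2 fold change was 0.77 ± 0.29 with an unadjusted p of 0.0212, but the FDR over all miRNAs was 0.678 (edgeR), so it did not pass. Without ZDF PTH bone 4 it was 0.90 ± 0.29 with FDR = 0.155, past the threshold. That fit called 16 miRNAs in all, against 0 with every bone. miR-10a-5p in the same bones was at 700, 666, 693 and 655 TMM CPM under PTH and 569, 355, 666 and 560 under placebo, a difference of 0.34 ± 0.28 (FDR = 0.750, edgeR). Between placebo bones of ZDF and WT rats, miR-10a-5p differed by 0.27 ± 0.32 and miR-10b-5p by 0.12 ± 0.32, both within their standard error.

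In WT rats the PTH bones fell on both sides of the placebo bones. miR-10b-5p was at 3065, 4775, 320 and 239 TMM CPM under PTH and 995, 1410, 578 and 835 under placebo, and miR-10a-5p at 933, 2297, 215 and 203 against 574, 531, 327 and 362. For each miRNA, PTH bones 1 and 2 were above every placebo bone and PTH bones 3 and 4 below every one. The fold changes over all bones were 1.43 ± 0.86 for miR-10b-5p and 1.26 ± 0.76 for miR-10a-5p, both with FDR = 0.447 (edgeR). Without PTH bones 1 and 2 they turned to -1.91 ± 0.47 (FDR = 0.172) and -1.26 ± 0.42 (FDR = 0.204). The comparison of PTH-treated ZDF and WT bones likewise turned from -0.49 ± 0.83 (FDR = 0.790) to 2.70 ± 0.41 (FDR = 0.00996) for miR-10b-5p, and the difference in the response to PTH between genotypes from -0.47 ± 0.91 (FDR = 0.903) to 2.64 ± 0.51 (FDR = 0.0105). With 2 bones left in the group, and these left because of how the other pair looked, the values are a description of the libraries.

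miR-196a-5p was scarce in every library. It had 22 reads in all in the 32 sera, with 0 in 20 of them and at most 6 in one, and 251 reads in the 16 bones. A serum with 0 reads allows a level of up to 19.9 to 107 CPM, depending on its depth (3 reads, counting error only), so absence cannot be read from it. Anti-sclerostin and insulin sera of ZDF rats had 0 reads in 8 of 8 libraries, while placebo sera of ZDF rats had 0, 1, 0, 3 and 0, which these depths do not separate. In bone, the reads were 5, 13, 79 and 30 in WT placebo, 13, 23, 3 and 3 in ZDF placebo, 26, 10, 13 and 25 in ZDF PTH and 0, 0, 2 and 6 in WT PTH bones. The corresponding means were 59.9 ± 53.7, 31.2 ± 23.9, 52.3 ± 22.4 and 7.74 ± 9.65 TMM CPM (SD, n = 4 each). Serum and bone overlapped in all 4 comparisons, with exact permutation p of 0.0476 in placebo WT, 0.0952 in placebo ZDF, 0.651 in PTH WT and 0.0476 in PTH ZDF rats.

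The WT PTH bones were lowest in miR-196a-5p, at 0, 0, 11.0 and 19.9 TMM CPM. They lay below all WT placebo bones (23.1 to 139.6) and below all ZDF PTH bones (28.1 to 75.7), each with an exact permutation p of 0.0286. Of the miRNAs with a read, 3.74% did not overlap in the first of these comparisons and 5.84% in the second. The zeros came from the shallowest bones, in which 0 reads allow up to 55.0 and 72.1 CPM, above the level in most other bones, so the 2 bones with reads carry the comparison. edgeR did not test the miRNA there, because it fell under the filter on low counts. Without that filter the change under PTH in WT bone was -2.25 ± 0.74 with FDR = 0.0639, and without PTH bones 1 and 2 it was -2.06 ± 0.89 with FDR = 0.333. Between ZDF and WT PTH bones the difference was 2.02 ± 0.78 with FDR = 0.332 without the filter, and 1.71 ± 0.67 with FDR = 0.181, past the threshold, without WT PTH bones 1 and 2. In the fit over all 4 bone groups the response to PTH differed between genotypes by 3.06 ± 1.01, with an unadjusted p of 0.00628 and FDR = 0.526 (edgeR).

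The other products of these genes show where the Hox miRNA reads lay. miR-196b-5p, from the HoxA cluster, was by far the most abundant of them in bone, with 58516 reads over the 16 bones and 273 over the 32 sera. It was 5.96 to 7.18 higher in bone on the log2 scale (SE from 0.37 to 0.75, FDR at most 1.45e-07, edgeR). In placebo WT rats the bones held 6060, 12521, 8201 and 11216 TMM CPM and the sera 143, 237, 61.7, 71.8 and 78.5. For every 100 reads of miR-196b-5p the bones held 0 to 1.70 reads of miR-196a-5p (median 0.281). Since the sequences differ at 1 base and 1 mismatch was allowed, part of the miR-196a-5p reads may be reads of miR-196b-5p, which was not tested. miR-196c-5p, from the HoxB cluster, had 145 reads in bone and 6 in serum. miR-196b-5p was also lower under anti-sclerostin than under placebo in ZDF serum, at 30.0, 76.3, 48.6 and 51.8 against 135, 147, 128, 109 and 84.9 TMM CPM, without overlap and with an exact permutation p of 0.0159. In that comparison 2.02% of miRNAs with a read did not overlap, and the counts, 1 to 14 reads, were too low for edgeR.

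**Figure D4:**
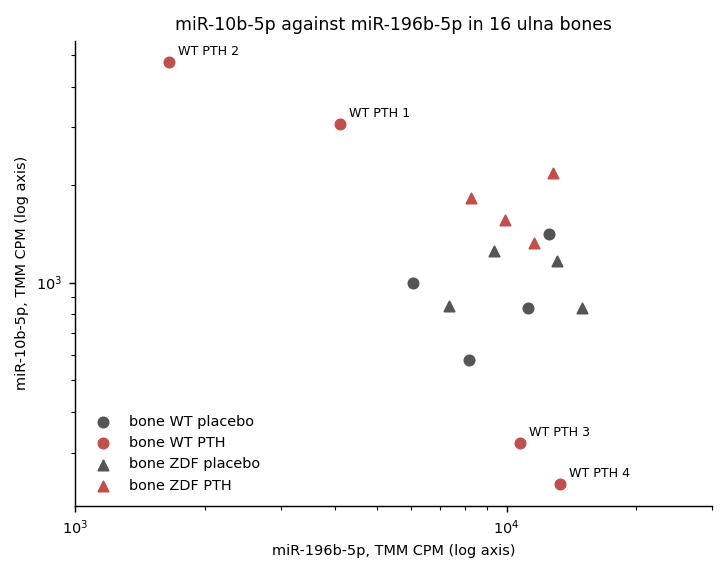
Levels of miR-10b-5p against miR-196b-5p in the 16 ulna bones, both as TMM CPM on log axes. Circles are WT and triangles ZDF rats, grey is placebo and red is PTH. WT PTH bones 1 and 2 lie at the upper left, with 3065 and 4775 of miR-10b-5p, and WT PTH bones 3 and 4 at the lower right, with 320 and 239.

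Among the 16 bones, the WT PTH libraries held the highest 2 and the lowest 2 levels of miR-10b-5p and the lowest 2 of miR-196b-5p. miR-196b-5p was at 4112 and 1652 TMM CPM in WT PTH bones 1 and 2, where miR-10b-5p was high, and at 10763 and 13302 in bones 3 and 4, where it was low. The log2 ratio of miR-10b-5p to miR-196b-5p reads ran from -5.79 to 1.52 over these 4 bones, and from -4.16 to -2.18 over the other 12. The smooth muscle and endothelial markers and the depth given above moved with this split, while the 5 striated muscle miRNAs summed to 48154 to 67170 TMM CPM in all 4 bones. Their part in the split was not tested.

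The opposite arms of the miR-10 hairpins were counted too. The 3p arm, the less abundant one of these hairpins, made up 18.1% ± 11.0 of the miR-10a reads in serum and 3.53% ± 2.83 in bone. Of the miR-10b reads it made up 19.9% ± 19.9 and 5.54% ± 5.54 (SD, n = 32 and 16). These are means of the shares of single libraries. The 32 sera held 298 reads of miR-10a-3p and 1577 of miR-10a-5p, and 85 of miR-10b-3p and 494 of miR-10b-5p. ZDF insulin serum 4, with 0 reads of miR-10b-5p, entered at 100%. In placebo ZDF rats miR-10a-3p was 3.15 ± 0.55 lower in bone on the log2 scale (FDR = 8.10e-05, edgeR), while in the other comparisons of tissues it was too low for that test. By exact permutation it was lower in bone without overlap in placebo WT, placebo ZDF and PTH ZDF rats (p = 0.0159 in each). Among miRNAs with a read, 30.8%, 37.8% and 36.4% did not overlap there, in the same order. In placebo ZDF rats edgeR called 86.1% of all tested. miR-10b-3p had the higher mean in bone. In ZDF rats it was 53.8 ± 8.35 TMM CPM against 17.8 ± 7.92 in serum under placebo (SD). Under PTH it was 49.3 ± 8.49 against 25.9 ± 15.3. In WT rats it was 47.3 ± 11.4 against 33.6 ± 30.4 under placebo and 29.9 ± 35.4 against 27.1 ± 28.3 under PTH. Of the 8 other arms of Hox cluster miRNAs on the list, miR-196b-5p had enough reads for a test in each comparison of tissues and miR-10a-3p in 1 of them. Outside the comparisons of tissues the 8 arms gave 19 tests by edgeR, of which 0 were called, 0 had an unadjusted p under 0.05 and 0 were called by DESeq2.

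The sequence relatives of the miR-10 family, miR-99a-5p, miR-99b-5p and miR-100-5p, and miR-125a-5p and miR-125b-5p, which are encoded beside them, were mostly higher in bone too. All 5 were higher in bone in placebo WT, placebo ZDF and PTH ZDF rats, and 3 of 5 in PTH WT rats (edgeR, FDR < 0.2), where 37.5% to 46.3% of all miRNAs tested were called higher in bone. Under placebo in ZDF rats the log2 differences were 4.15 ± 0.37 for miR-99a-5p, 3.75 ± 0.32 for miR-100-5p and 4.71 ± 0.35 for miR-125b-5p, and 1.34 ± 0.34 for miR-99b-5p and 1.29 ± 0.32 for miR-125a-5p. Among genotypes and treatments the 5 relatives gave 4 calls, 2 of them under insulin, where 26.5% of all miRNAs were called, and the others where 6.1% and 5.41% were. miR-100-5p was lower in ZDF than in WT placebo serum by 1.31 ± 0.45 on the log2 scale (FDR = 0.161). Insulin-treated ZDF serum was lower in miR-125a-5p (-1.05 ± 0.39, FDR = 0.116) and miR-99a-5p (-0.81 ± 0.34, FDR = 0.160), the comparison in which miR-10a-5p was called. PTH-treated WT bone was lower in miR-125b-5p (-1.32 ± 0.43, FDR = 0.164, edgeR for all 4). This last call was fragile: the comparison called 0 miRNAs without WT PTH bone 1 or 2, or without WT placebo bone 2, 3 or 4. The value of miR-125b-5p without both of these PTH bones is not given.

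Likeness of pattern was measured as the SD, over the libraries of a tissue, of the log2 ratio of a miRNA to the member, among miRNAs with a mean of at least 100 TMM CPM. A low SD means that the ratio changed little from library to library, which also holds for miRNAs that both vary little. Over the 16 bones the miRNA nearest to miR-10a-5p among 176 was miR-10b-5p (SD 0.40), followed by miR-28-3p (0.42) and miR-186-5p (0.57), against a median of 1.15 over all. For miR-10b-5p the nearest were miR-10a-5p, miR-28-3p (0.66) and miR-148a-3p (0.76), and for miR-196a-5p miR-92a-3p (0.84), miR-320-3p (0.85) and miR-181a-5p (0.92). In the 32 sera the miR-10 miRNAs were less alike: their ratio varied with an SD of 1.24, and miR-10b-5p ranked 58 of 169 in likeness to miR-10a-5p. The nearest miRNAs there were miR-125a-5p (0.71), miR-30d-5p (0.71) and miR-152-3p (0.77) for miR-10a-5p, and miR-146a-5p (0.89), miR-30d-5p (0.93) and miR-99b-5p (0.97) for miR-10b-5p. For miR-196a-5p in serum they were miR-203a-3p, miR-28-3p and miR-140-3p, at 0.89 to 0.99, with most of its own values at 0 reads. Over the bones the WT PTH group spread most in miR-10a-5p, at 203 to 2297 TMM CPM against 327 to 700 in the other bone groups. The likeness in bone thus includes the split among the WT PTH bones, and it was not computed without them. These values describe the libraries, and the part of reads shared between miR-10a-5p and miR-10b-5p in mapping was not tested.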

How the data were processed

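Small RNA libraries from 100 µL of serum or from homogenised ulna were made with the RealSeq-Biofluids kit. The authors removed adapters (cutadapt 3.3), discarded reads under 17 nt, and used bowtie 1.3.0 and miRDeep2 2.0.1.2 to map to the genome (Rnor_6.0, at most 2 mismatches) and then to miRBase 22.1 (at most 1). The deposited counts are whole reads per mature miRNA. RPM values per all reads, also from the authors, served only to compute library totals, and a column scaled to miRNA reads was not used.

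Groups were taken from the labels. The quasi-likelihood test of edgeR 4.0.16 (R 4.3.3) was run on the 2 groups compared, with TMM factors and filterByExpr (minimum count 10). FDR is the Benjamini-Hochberg value over all miRNAs tested, and 0.2 is the study's threshold. The test reports no standard error. The SE given was derived from it, as the size of the log2 fold change divided by the square root of the F statistic. The authors used edgeR 3.32 with independent filtering, tried here as an alternative. Members and the 8 other arms of Hox cluster miRNAs were also compared by exact two-sided permutation of log2(TMM CPM + 1) with scipy 1.17.1. The smallest p of this test is 0.0286 for 4 against 4, 0.0159 for 4 against 5 and 0.00794 for 5 against 5. The floors given for 0 reads cover counting error only, while each SE or SD also holds the spread between libraries. The members and lists were chosen with earlier results of these data known. The named miRNAs are the members, 8 other arms of Hox cluster miRNAs, 5 relatives and the 3 nearest in pattern in each tissue. Lists of marker miRNAs of other cell types and tissues are given as summed levels, with the smooth muscle markers miR-143-3p and miR-145-5p also named. The scripts were tested on simulated data.

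Alternatives were RLE size factors, totals of miRNA reads, of all reads or of the 3 synthetic controls of the serum, DESeq2 1.42.0, no filter, all groups in one fit, FDR < 0.05, summed reads of miR-10a-5p and miR-10b-5p, each replicate left out, and, chosen after seeing the data, WT PTH bones 1 and 2 left out. Sequences came from RefSeq (GRCr8), where 10 of 11 names matched.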

Additional observations from a re-analysis of the deposited data

Results flagged for a closer look

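The 3 members and the ratio of miR-10b-5p to miR-10a-5p were searched in the 11 groups for a library far from the rest. Of the 42 such tests, 6 found one. The usual rate of about 1 in 20 by chance assumes normally distributed values. The members were tested as untransformed CPM, so 6 of 42 cannot be read as an excess. For miR-10a-5p these were WT PTH serum 3 at 2029 TMM CPM against 132 to 617 in the other 4, WT anti-sclerostin serum 3 at 786 against 188 to 241, and ZDF placebo serum 1 at 1347 against 231 to 533. The last of these carried the call under insulin. For miR-196a-5p they were WT placebo bone 3 at 139.6 against 23.1 to 41.9, ZDF PTH serum 2 at 47.2 against 0 to 11.2, and ZDF placebo serum 4 at 41.0 against 0 to 10.5. Both sera held 3 reads of it.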

How the results depend on the processing

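The gap of miR-10b-5p between tissues kept its direction and passed the threshold in each alternative fit that tested it in placebo WT (1.36 to 4.18 on the log2 scale), placebo ZDF (2.38 to 5.50) and PTH ZDF rats (3.04 to 5.81), and in PTH WT rats in each but the one without WT PTH bones 1 and 2. The synthetic controls exist for serum only, and the fit with summed miR-10 reads does not test miR-10b-5p. Low reads of miR-10b-5p and miR-196a-5p limit the serum comparisons. No paired analysis was possible because the labels give the libraries no numbers that tie samples of different groups. The causes of the changes below were not tested.

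The number of members called moved as follows, with the share of all miRNAs called in the same fit in parentheses. With totals of all reads it was 2 between ZDF and WT placebo serum (64.6%), and 2 between tissues in placebo WT (86.5%), placebo ZDF (83.7%) and PTH ZDF rats (84.2%). With the synthetic controls it was 1 between ZDF and WT placebo serum (22.6%), 2 under PTH in ZDF serum (57.1%) and 0 under insulin (14.6%), where all groups in one fit and FDR < 0.05 also gave 0. With no filter, and with independent filtering, it was 2 between tissues in the same 3 groups of rats (53.6% to 70.8%), and under PTH in WT bone 2 (8.56%) and 3 (14.2%). Independent filtering gave 1 between PTH bones of ZDF and WT rats (5.36%) and 1 for the bone interaction (3.03%). All groups in one fit gave 1 under PTH in WT bone (14%), and summed miR-10 reads gave 0 between tissues in placebo WT rats (80.5%). Without WT PTH bones 1 and 2 it was 1 under PTH in WT bone (7.09%), 3 between PTH bones of ZDF and WT rats (17.1%) and 2 for the bone interaction (2.5%).

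Signs turned in differences that mostly were not called. For ZDF against WT, miR-10a-5p in placebo serum came to 0.037 (RLE), 0.0079 (miRNA totals), 0.046 (DESeq2) and 0.061 (all groups). With totals of all reads, miR-10a-5p came to -0.36 in anti-sclerostin serum, -0.086 in placebo bone and 1.55 in PTH bone, and miR-10b-5p to -0.27 and 1.81 in those bones. Under PTH it came to -0.15 for miR-10a-5p in WT serum, and in WT bone to -1.14 for miR-10a-5p and -1.25 for miR-10b-5p. Between tissues, miR-10a-5p came to 1.96 (placebo WT), 2.85 (placebo ZDF), 0.96 (PTH WT) and 2.12 (PTH ZDF). The interactions came to 0.36 for miR-10b-5p (anti-sclerostin) and to 1.63 for miR-10a-5p and 2.08 for miR-10b-5p (PTH, bone). With the synthetic controls, miR-10b-5p came to 0.35 between PTH sera of ZDF and WT rats, 0.20 under PTH in WT serum and 0.89 for the anti-sclerostin interaction, and miR-10a-5p to 0.49 under anti-sclerostin in ZDF serum. Between tissues, miR-10a-5p in placebo ZDF rats was 0.12 with no filter or independent filtering and 0.18 with all groups, and in PTH WT rats 0.20 (RLE), 0.027 (miRNA totals), 0.22 (DESeq2) and 0.36 (all groups). Without WT PTH bones 1 and 2, miR-10a-5p and miR-10b-5p turned to -1.26 and -1.91 under PTH in WT bone, 1.77 and 2.70 between PTH bones of ZDF and WT rats, and 1.56 and 2.64 for the bone interaction.

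With 1 library left out, the number of members called moved as follows, with the number of all miRNAs called in parentheses. Shares were not computed for these fits. Under insulin (40 with all libraries) it was 0 without placebo serum 1 (21) or 5 (20), or insulin serum 3 (4) or 4 (25). Without insulin serum 1 (22) the call passed to miR-10b-5p. Under anti-sclerostin in ZDF serum it rose from 0 to 1 without anti-sclerostin serum 1 (22, against 2 with all libraries). It rose to 1 under PTH in ZDF bone without PTH bone 4 (16 against 0), and for the bone interaction without WT placebo bone 1 (21 against 0). Under PTH in WT bone it rose from 0 to 2 without PTH bone 4 (41 against 12). Between tissues it ranged from 1 to 2 in placebo WT (162 to 189) and PTH ZDF rats (153 to 173). Values that turned ranged, for miR-10a-5p, from -0.73 to 0.44 (ZDF against WT, placebo serum), -0.15 to 1.47 (PTH serum), -0.90 to 0.61 (PTH bone), -0.71 to 0.54 (anti-sclerostin, ZDF serum), -0.50 to 1.03 (PTH, WT serum), -0.56 to 0.53, -1.04 to 0.67 and -0.90 to 0.16 (tissues, placebo ZDF, PTH WT and PTH ZDF), and -0.063 to 1.35, -0.074 to 1.29 and -1.25 to 0.39 (interactions of PTH in serum, anti-sclerostin in serum and PTH in bone). For miR-10b-5p they ranged from -0.57 to 0.31 (ZDF against WT, PTH serum), -0.082 to 0.32 (placebo bone), -0.80 to 0.44 (PTH bone), -0.69 to 0.18 (PTH, WT serum), and -0.71 to 0.023 and -1.01 to 0.40 (interactions of anti-sclerostin in serum and PTH in bone). The ratio of miR-10b-5p to miR-10a-5p ranged from -0.22 to 0.0026 (ZDF against WT, placebo bone), -1.33 to 0.42 (insulin), -0.55 to 0.074 (anti-sclerostin, WT serum) and -0.44 to 0.052 (PTH, WT bone). Between tissues the ratio stayed between 1.66 and 3.80.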
